A study of Homo sapiens with 6 samples.

Results

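Transcripts of the SMAD response genes ID1, ID2, ID3, ID4, SMAD6, SMAD7, SKIL, BAMBI and BMP7 were examined in SH-SY5Y, a human neuroblastoma cell line. It derives from the sympathetic lineage, and retinoic acid makes it more like neurons. The 9 genes were listed by name as known TGF-beta and BMP response genes, with earlier results of these data known, and all 9 were among the 17687 genes tested. Each was measured by 1 probe set of an Affymetrix whole-transcript array, as log2 signal. The 6 arrays came from 3 cultures labelled 15EN and 3 labelled VC (vehicle control), with 1 of each at passages 33, 34 and 35 for replicates 1, 2 and 3 in titles and source names, although every description names passage 33. All 6 samples were differentiated with atRA, a form of retinoic acid, over 96 h. The treatment text gives the bioactive compound at 15 µM for all 6. Eurycomanone, a plant quassinoid, is named in the title of the series, and the labels leave 15EN unexpanded. A single cancer-derived line was used. Apart from the passage the labels do not say whether cultures were independent, and the p-values then reflect the spread among these 6 arrays alone, part of which may be technical.

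TGF-beta, activin and BMP ligands bind pairs of type I and type II receptor kinases, which phosphorylate SMAD proteins. These join SMAD4, enter the nucleus and switch target genes on or off, with SMAD1, SMAD5 and SMAD9 carrying mainly BMP signals and SMAD2 and SMAD3 mainly TGF-beta and activin signals. Several of the targets encode brakes on the pathway: SMAD6 and SMAD7 are inhibitory SMADs, BAMBI is a decoy receptor without a kinase, and SKIL (SnoN) is a nuclear corepressor of SMADs. The ID genes, ID1 above all, are direct BMP targets in many cell types. ID proteins bind basic helix-loop-helix (bHLH) transcription factors and keep them off DNA, and in neural precursors they hold back differentiation. BMP signals act on developing sympathetic neurons, the lineage of neuroblastoma, where BMP7 is one of the ligands.

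Both inhibitory SMAD genes were lower in 15EN and ID1 was higher, and the other 6 genes did not pass the test. SMAD6 was 8.74-fold and SMAD7 3.03-fold lower in 15EN, and ID1 was 3.05-fold higher. With limma across all 17687 genes (Benjamini-Hochberg adjusted p under 0.05), 1 of the 9 was higher and 2 were lower. Of all genes tested, 21.4% passed in either direction, 12.3% as higher and 9.09% as lower in 15EN, and 3 of the 9 (33.3%) passed, which with so few genes marks nothing particular to the list. The median log2 difference of the 9 genes was 0.24, and that of all genes was 0.01. The values of the 15EN and VC arrays did not overlap for 5 of the 9 genes, against 36.3% of all genes.

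**Figure D1:**
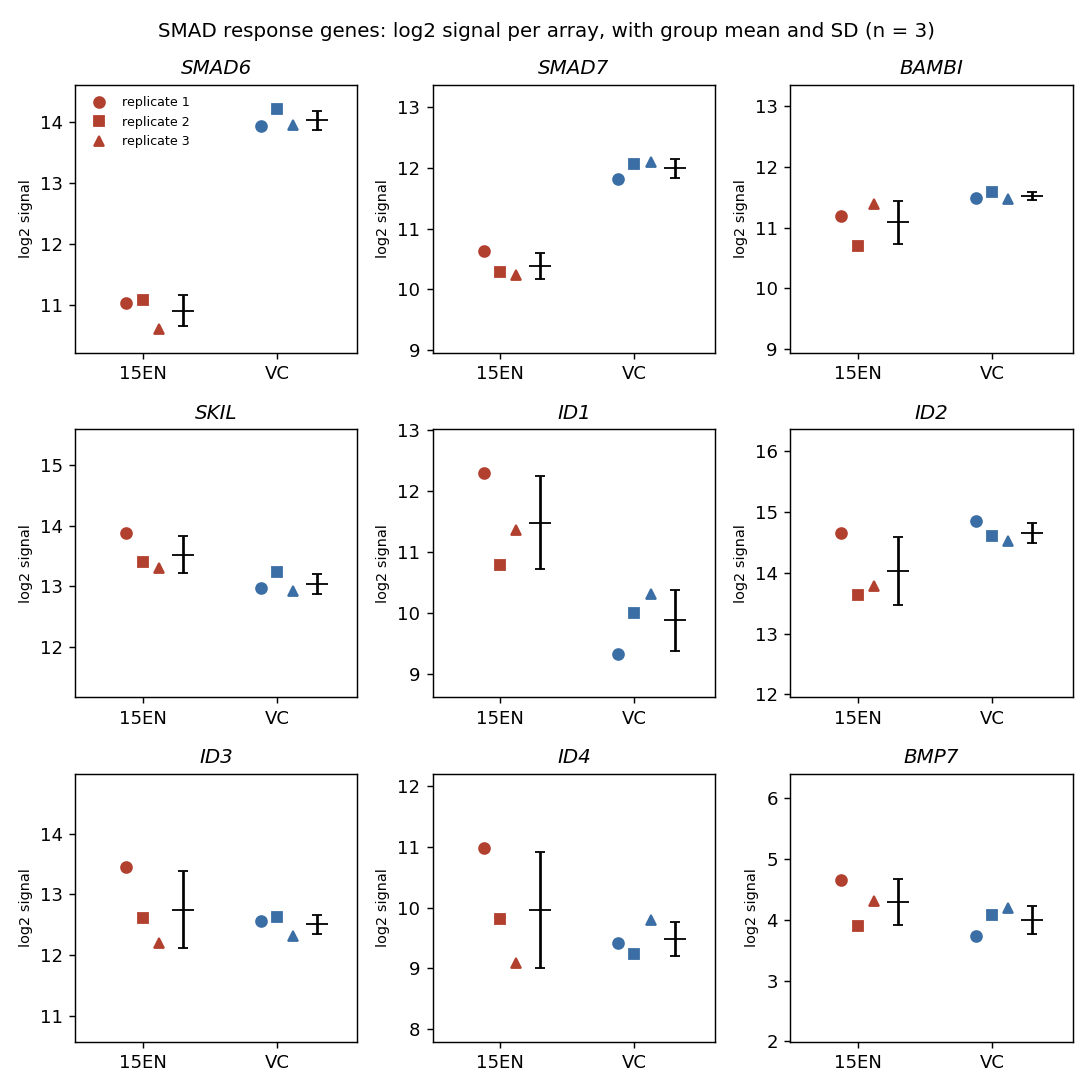
Log2 signal (vertical axis, each panel spanning its own range of at least 4.4 log2 units) of the 9 SMAD response genes in the 3 15EN arrays (left, red) and the 3 VC arrays (right, blue), with the replicate number as the marker shape and the group mean with its SD beside the points. SMAD6 lies at 10.61 to 11.08 in 15EN and at 13.94 to 14.22 in VC, and ID1 at 10.79 to 12.31 in 15EN and 9.33 to 10.31 in VC.

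The promoters of the 3 genes that passed are shown because SMAD complexes are known to bind short elements in target promoters. RefSeq windows (GRCh38.p14) running from 250 bases before to 50 bases after an annotated start were at hand for 8 of the 9 genes, BMP7 being the exception, with 10 windows in all because SMAD7 has 3 starts. Capitals mark matches, on either strand, to any of 3 motifs. These are GTCTAGAC, the palindromic SMAD element, CAGAC, a separate and shorter SMAD box, and GGCGCC, the GC-rich element bound by BMP SMADs. No marked matches overlap in these windows.
SMAD6, chr15:66701986-66702285, plus strand: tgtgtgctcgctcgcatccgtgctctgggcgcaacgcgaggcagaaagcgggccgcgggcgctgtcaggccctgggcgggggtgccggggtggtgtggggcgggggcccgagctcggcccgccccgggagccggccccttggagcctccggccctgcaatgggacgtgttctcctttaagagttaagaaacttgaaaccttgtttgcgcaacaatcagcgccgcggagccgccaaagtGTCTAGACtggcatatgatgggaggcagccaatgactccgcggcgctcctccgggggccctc
SMAD7 start 1, chr18:48950916-48951215, minus strand: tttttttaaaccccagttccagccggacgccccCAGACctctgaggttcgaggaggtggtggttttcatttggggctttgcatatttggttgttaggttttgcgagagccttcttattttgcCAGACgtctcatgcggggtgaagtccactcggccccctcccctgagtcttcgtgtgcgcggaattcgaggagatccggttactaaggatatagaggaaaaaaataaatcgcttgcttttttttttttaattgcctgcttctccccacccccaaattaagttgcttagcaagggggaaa
SMAD7 start 2, chr18:48949284-48949583, minus strand: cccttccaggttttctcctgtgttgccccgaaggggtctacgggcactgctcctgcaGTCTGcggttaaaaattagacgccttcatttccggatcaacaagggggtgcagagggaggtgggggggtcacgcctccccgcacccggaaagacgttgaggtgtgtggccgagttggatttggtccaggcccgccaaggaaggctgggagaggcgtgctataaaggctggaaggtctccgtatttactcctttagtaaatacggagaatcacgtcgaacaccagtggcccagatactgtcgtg
ID1, chr20:31605039-31605338, plus strand: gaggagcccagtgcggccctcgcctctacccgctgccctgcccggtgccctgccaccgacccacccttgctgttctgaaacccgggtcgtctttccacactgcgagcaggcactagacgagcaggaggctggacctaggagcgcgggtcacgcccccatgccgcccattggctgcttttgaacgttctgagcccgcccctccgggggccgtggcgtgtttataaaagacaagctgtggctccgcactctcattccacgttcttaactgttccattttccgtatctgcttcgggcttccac
The SMAD6 window holds the palindrome GTCTAGAC at positions -12 to -5 from the start, a sequence found in 71 of 35116 RefSeq windows of the same length (0.202%). In the SMAD7 window of start 1, CAGAC lies at -217 and at -128, and the window of start 2 has its complement at -193. The third SMAD7 window and the ID1 and ID2 windows hold none of the 3 motifs. CAGAC is common, in 45.3% of all windows, and was also found in those of ID3, ID4, SKIL and BAMBI. GGCGCC occurs in 19.2% of all windows, once in that of SKIL and at 3 places in that of BAMBI. These matches describe letters in a window and no binding was measured. Sequence outside the windows was not searched, so a window without a match does not show that its gene lacks these elements.

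SMAD6 encodes an inhibitory SMAD that acts mainly on BMP receptors and the SMADs they activate. On the log2 scale it measured 11.03, 11.08 and 10.61 in replicates 1 to 3 of 15EN, against 13.94, 14.22 and 13.95 in the VC replicates. Every 15EN array lay more than 2 log2 units below every VC array. The difference was -3.13 ± 0.22 (SE, limma adjusted p = 6.44e-05), with a 95% interval of -3.62 to -2.64, and its size ranked 54 of 17687 genes. In the same-numbered arrays the differences were -2.91, -3.14 and -3.34. SMAD6 passed under each of 18 alternatives (adjusted p = 2.48e-06 to 0.00996).

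SMAD7 encodes the other inhibitory SMAD, which blocks TGF-beta and activin receptors as well as BMP receptors. It measured 10.63, 10.29 and 10.24 in 15EN, against 11.82, 12.06 and 12.09 in VC. The groups were again well apart, and the spread within a group (SD of 0.21 in 15EN and 0.15 in VC) was small beside the difference of -1.60 ± 0.21 (SE, adjusted p = 0.000791). Same-numbered differences ran from -1.85 to -1.18. Scaling to the hybridization controls, which adds 0.87 to every gene, brought the difference to -0.73 (adjusted p = 0.0157).

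BAMBI, the decoy receptor, measured 11.18, 10.70 and 11.38 in 15EN, against 11.48, 11.59 and 11.47 in VC. All 15EN arrays were lower, replicate 3 by little, and the difference of -0.43 ± 0.23 did not pass (adjusted p = 0.243, 95% interval -0.94 to 0.09). SKIL, the nuclear corepressor, measured 13.88, 13.39 and 13.30 in 15EN, against 12.98, 13.23 and 12.93 in VC. The lowest 15EN array was just above the highest VC array, and the difference of 0.48 ± 0.23 did not pass (adjusted p = 0.185, 95% interval -0.03 to 0.99). The direction of BAMBI depends on the scaling, being 0.44 after scaling to the hybridization controls, where SKIL reached 1.35 (adjusted p = 0.000575) beside a median gene of 0.88.

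**Figure D2:**
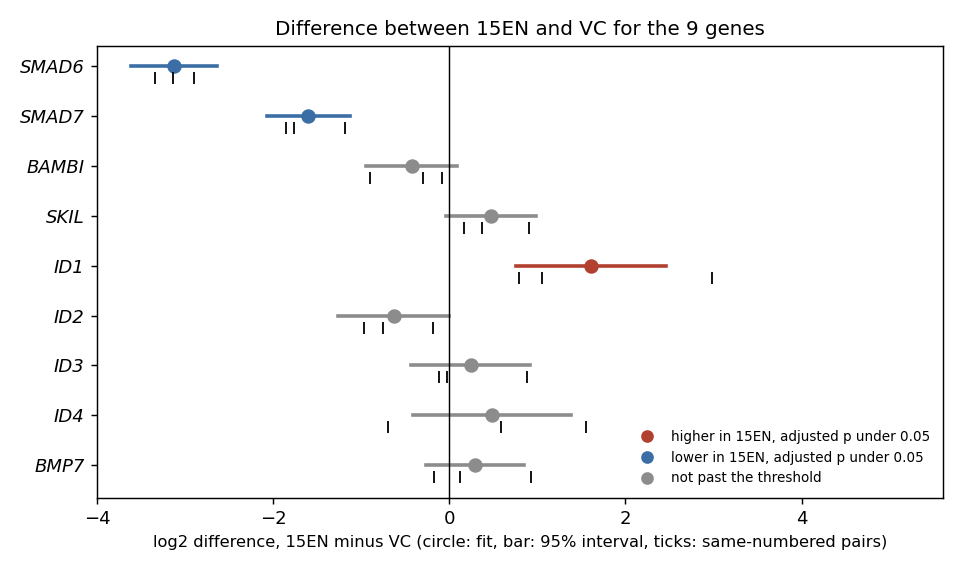
Log2 difference, 15EN minus VC (horizontal axis), of the 9 genes: circles are limma estimates, bars their 95% intervals, and ticks the 3 differences between same-numbered arrays. SMAD6 (-3.13) and SMAD7 (-1.60) lie left of 0 and ID1 (1.61) right of it, and the ticks of ID1 spread from 0.79 to 2.98.

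Among the ID genes, ID1 measured 12.31, 10.79 and 11.36 in 15EN, against 9.33, 9.999 and 10.31 in VC. All 15EN arrays were above all VC arrays, but both groups were spread, with SDs of 0.77 in 15EN and 0.50 in VC. The difference was 1.61 ± 0.38 (SE, adjusted p = 0.0134, 95% interval 0.76 to 2.46). Replicate 1 carried much of it: the same-numbered differences were 2.98, 0.79 and 1.05. The call was lost without VC replicate 1 (1.33, adjusted p = 0.0638) and without both arrays of replicate 1 (0.92, adjusted p = 0.135). After scaling to the hybridization controls the difference was 2.48.

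ID2, which in neural precursors holds back neuronal differentiation, measured 14.66, 13.63 and 13.78 in 15EN, against 14.84, 14.60 and 14.53 in VC. Replicates 2 and 3 of 15EN were below every VC array and replicate 1 was within their range. The difference was -0.63 ± 0.28 (adjusted p = 0.154). Without 15EN replicate 1 it was -0.95 and passed (adjusted p = 0.0274), and after scaling to the hybridization controls it was 0.24 (adjusted p = 0.427). ID3, a close relative of ID1 in its response to BMP, measured 13.44, 12.60 and 12.20 in 15EN, against 12.57, 12.63 and 12.32 in VC, with 15EN arrays on both sides of the VC arrays (0.24 ± 0.30, adjusted p = 0.655). ID4, expressed in neural precursors, measured 10.98, 9.81 and 9.10 in 15EN, against 9.42, 9.23 and 9.79 in VC. Here too the 15EN arrays surrounded the VC arrays (0.48 ± 0.41, adjusted p = 0.477). Without 15EN replicate 1 both differences turned slightly negative, at -0.10 for ID3 and -0.02 for ID4, and neither passed. After scaling to the hybridization controls both passed, at 1.11 for ID3 and 1.35 for ID4, beside the median gene of 0.88.

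All 4 ID genes were highest, within 15EN, in replicate 1. Relative to the mean of replicates 2 and 3, that array was higher by 1.23 for ID1, 0.96 for ID2, 1.04 for ID3 and 1.52 for ID4. Over all genes the median of this measure was -0.03, and 270 of 17687 genes (1.53%) reached 0.96 or more. In VC, replicate 1 differed from the mean of replicates 2 and 3 by -0.83 for ID1, 0.28 for ID2, 0.09 for ID3 and -0.09 for ID4, and VC replicate 1 was the lowest VC array for ID1. This observation was made after the values were seen and carries no test.

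**Figure D3:**
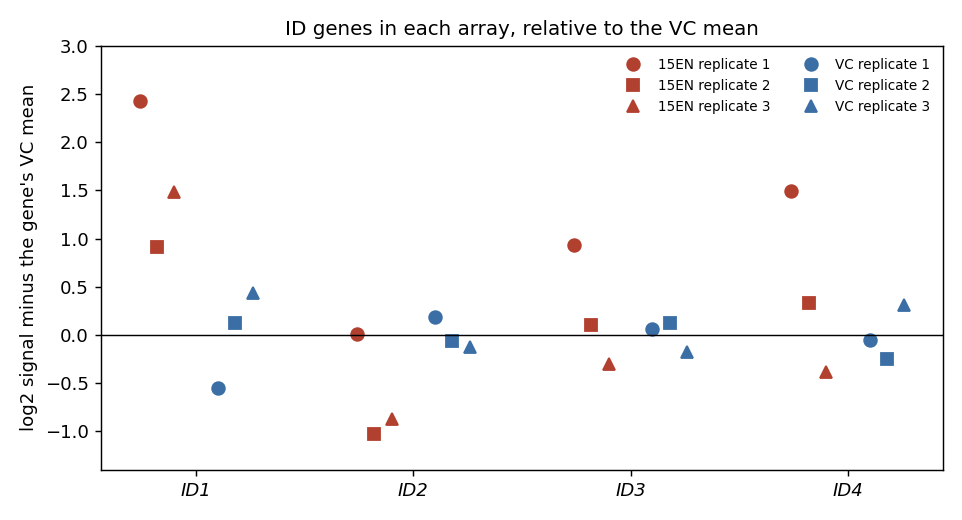
Log2 signal minus the gene's VC mean (vertical axis) for ID1 to ID4 in the 3 15EN arrays (red, left of each gene) and the 3 VC arrays (blue, right), with the replicate number as the marker shape. The red circles (15EN replicate 1) are the highest 15EN point for each gene, and only for ID1 do all 3 red points lie above the blue points.

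The changes of the ID genes were also set against each other within arrays. Adding a constant to all genes of an array leaves this measure unchanged, though a normalization that depends on brightness can move it. Only its change between groups can be read, since probe sets differ in brightness. ID1 minus ID2 was -2.35, -2.84 and -2.41 in 15EN, against -5.52, -4.60 and -4.22 in VC. This difference was higher in every 15EN array, by 2.24 on the log2 scale. Over the 6 pairs of ID genes, the exact two-sided permutation test gave p = 0.1 for 5 pairs, which is the smallest p that 3 against 3 arrays allow (0.12 after Benjamini-Hochberg adjustment over the 6). For ID3 against ID4 the exact test gave p = 0.4. The test permuted arrays without regard to replicate number. The 6 pairs share their genes and are not separate results.

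BMP7, the ligand of the list, was dim in both groups, its group means lying under the level that 90% of negative control probe sets stay below. It measured 4.66, 3.90 and 4.30 in 15EN, against 3.73, 4.07 and 4.19 in VC, and the arrays of the groups were mixed (0.29 ± 0.25, adjusted p = 0.49). It passed at 1.16 after scaling to the hybridization controls, where nearly all called genes were higher. Values at this level cannot be told from background.

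The 3 genes outside the list whose values across the 6 arrays, each taken relative to the VC mean, were most like those of SMAD6 were DHCR7, an enzyme of cholesterol synthesis, MGAT5, a glycosyltransferase of the Golgi, and OLFML3, a secreted olfactomedin-domain protein. Their root mean square distances from SMAD6 over the arrays were 0.200, 0.201 and 0.215 log2 units, and their differences -3.22, -3.08 and -3.14. The likeness is mainly that of the group difference, since these arrays hold a single contrast.

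Beyond the 9 genes, 121 of 130 listed genes of the pathway were measured, and 8 were higher and 13 lower in 15EN, which is 17.4% against 21.4% of all genes. Their median difference was -0.05. Of the 121, 56 were dim in both groups, a share close to that of all genes (8295 of 17687). With the replicate number as a block, 12 were higher and 19 lower (25.6%, against 23.8% of all genes in that fit), as 11 calls were gained and 1 was lost. The 11 lie outside the naming rule and are given below for this change of call. Of the 21 that passed, 11 kept their call without each single array and 6 did so under all 18 alternatives, namely GDF15, LTBP1, BMPER, ENG, MSX2 and CDKN1A. Scaling to the hybridization controls ended the calls of TGFB3 (-0.34), GDF11 (-0.07), LRRC32 (-0.23), BMPR2 (-0.29), COL1A1 (-0.01), TCF3 (-0.43) and HAND1 (-0.33), and turned NEO1, ACVR1B and SNAI2 to values of 0.05 to 0.14 that did not pass.

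**Figure D4:**
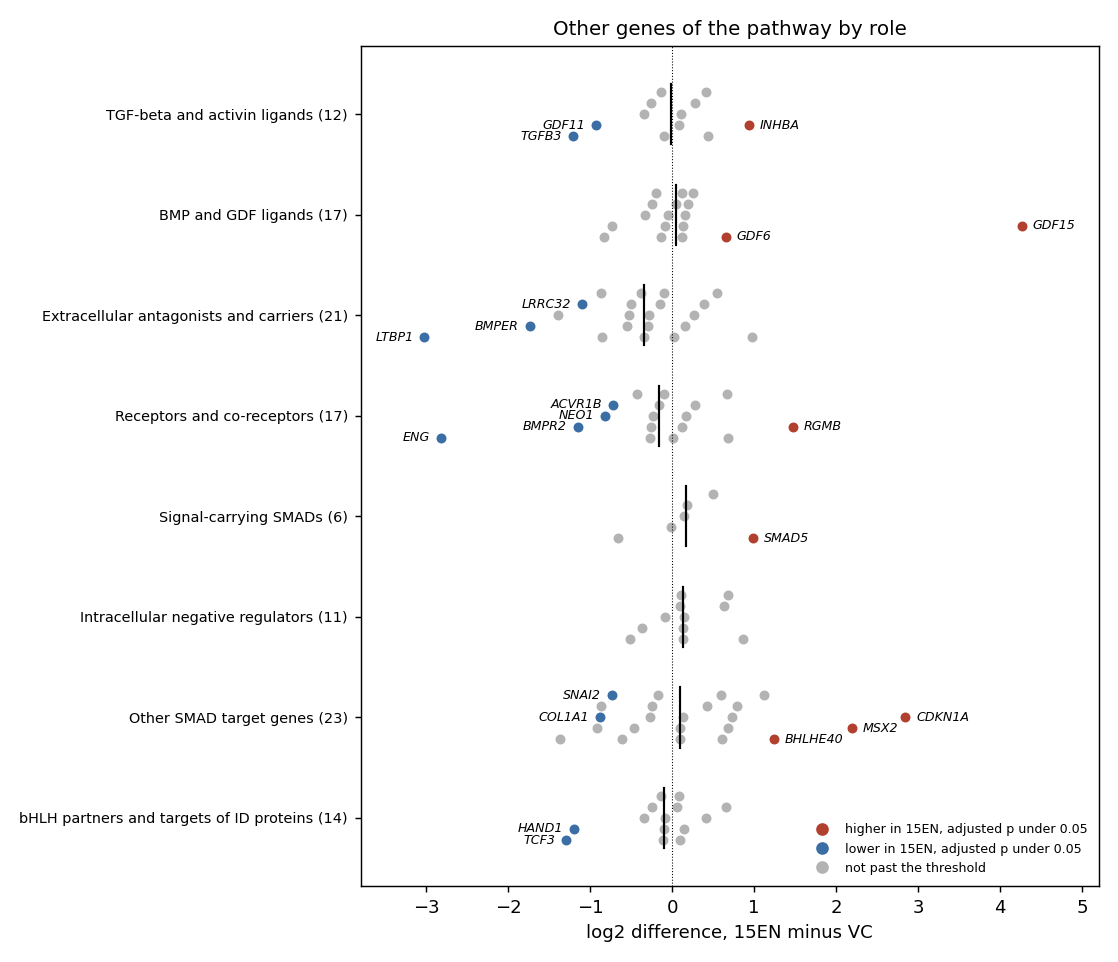
Log2 difference, 15EN minus VC (horizontal axis), of the other pathway genes by role, with the number measured in brackets, black bars at each list's median, and genes past adjusted p 0.05 named in red (higher in 15EN) or blue (lower). Extracellular antagonists and carriers have the lowest median (-0.34), with 0 of 21 higher and 3 lower.

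Of 17 BMP and GDF ligands 2 were higher and 0 lower, which is 11.8% against 21.4% of all genes, and 15 were dim in both groups. GDF15, a distant and stress-induced member of the family that signals through another receptor system, measured 14.56, 14.72 and 14.00 in 15EN, against 8.73, 10.15 and 11.60 in VC. The VC arrays were far apart from each other, and even so all 15EN arrays were above them (4.27 ± 0.57, adjusted p = 0.000782). GDF6, a BMP-type ligand, averaged 10.18 ± 0.12 in 15EN and 9.53 ± 0.03 in VC (SD, n = 3 each), a small difference of 0.65 ± 0.20 (SE, limma adjusted p = 0.0391). It did not pass with the replicate number as a block (adjusted p = 0.0525), where GDF2 (BMP9), a ligand of ENG that was dim in both groups, did (-0.74 ± 0.22, adjusted p = 0.0395, against 0.0889 without it). GDF6 also failed without any single array other than 15EN replicate 3 (0.0665 to 0.121). Quantile normalization (adjusted p = 0.084) and removal of a brightness trend (0.0848) also ended its call.

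Of 12 TGF-beta and activin ligands 1 was higher and 2 were lower (25%, against 21.4% of all genes), and 8 were dim in both groups. INHBA, the subunit of activin A, measured 11.63, 12.28 and 12.84 in 15EN, against 11.08, 11.47 and 11.40 in VC. The difference of 0.94 ± 0.30 passed narrowly (adjusted p = 0.0494) and was lost without any single array other than 15EN replicate 1 (0.0745 to 0.168), with quantile normalization (0.0933), median centring (0.051) or array weights (0.0596), or with a brightness trend removed (0.101). TGFB3 (-1.21 ± 0.20, adjusted p = 0.00237) and GDF11 (-0.93 ± 0.23, adjusted p = 0.0159) were lower while dim in both groups, and GDF11 did not pass without VC replicate 1 (0.0711). TGFB1 measured 9.81 ± 0.33 in 15EN and 9.94 ± 1.22 in VC (SD, n = 3 each), a difference well within the spread of the VC arrays.

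Proteins that hold or mask ligands outside the cell had 0 higher and 3 lower of 21 measured genes (14.3%, against 21.4% of all genes). Their median difference was -0.34, but 12 of the 21 were dim in both groups. LTBP1, which ties latent TGF-beta to the matrix, measured 6.85, 7.65 and 8.89 in 15EN, against 10.57, 11.04 and 10.85 in VC. Every 15EN array was lower, by unequal amounts (-3.02 ± 0.43, adjusted p = 0.00102). BMPER, a secreted BMP-binding protein, measured 7.97, 7.93 and 7.30 in 15EN, against 9.47, 9.22 and 9.73 in VC, and the groups were well apart (-1.74 ± 0.25, adjusted p = 0.00122). LRRC32 (GARP), a surface carrier of latent TGF-beta, differed by -1.10 ± 0.29 (adjusted p = 0.0208) while dim in both groups. It failed in the fits that left out replicate 1 or 2 of 15EN, or replicate 1 or 3 of VC (0.0539 to 0.091), and without both arrays of replicate 1 its difference was -0.66. The BMP antagonist GREM1 averaged 10.82 ± 1.19 in 15EN and 12.22 ± 0.31 in VC (SD, n = 3 each) and did not pass (limma adjusted p = 0.0652). In the blocked fit GREM1 passed (0.0207), as did NBL1 (-0.87, 0.0185, dim in both groups), a secreted BMP antagonist. CRIM1, a membrane protein that binds BMPs, passed there as well (0.98, 0.0123). That fit had 1 higher and 5 lower in all (28.6%, against 23.8% of all genes in it).

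Receptors and co-receptors had 1 higher and 4 lower of 17 (29.4%, against 21.4% of all genes), with 6 dim in both groups. ENG (endoglin), a co-receptor for TGF-beta and BMP9 known best from endothelium, measured 11.97, 12.73 and 13.07 in 15EN, against 15.14, 15.57 and 15.53 in VC. The groups were about 2 log2 units apart at their nearest (-2.82 ± 0.29, adjusted p = 0.000288). BMPR2, the type II BMP receptor, measured 11.33, 11.74 and 11.50 in 15EN, against 12.35, 13.17 and 12.52 in VC, lower in every array (-1.16 ± 0.26, adjusted p = 0.0101). RGMB, a membrane-anchored BMP co-receptor, went the other way, with 10.42, 10.95 and 10.14 in 15EN against 8.81, 9.13 and 9.15 in VC (1.47 ± 0.25, adjusted p = 0.00274). NEO1 (neogenin), the receptor that RGM proteins bind, was lower at -0.82 ± 0.20 (adjusted p = 0.0143), a call lost without VC replicate 1 (0.0553) or VC replicate 3 (0.0596). ACVR1B, an activin type I receptor outside the naming rule, differed by -0.73 ± 0.22 (adjusted p = 0.0388) and failed without any single array other than 15EN replicate 3 (0.0723 to 0.153). TGFBR1 (-0.43 ± 0.22, adjusted p = 0.202) and TGFBR2 (0.01 ± 0.33, adjusted p = 0.986), the TGF-beta receptors, did not pass.

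Of the 6 signal-carrying SMADs only SMAD5 passed (16.7%, against 21.4% of all genes). This BMP SMAD measured 16.37, 16.67 and 16.79 in 15EN, against 15.63, 15.69 and 15.56 in VC, higher in every array (0.98 ± 0.21, adjusted p = 0.00782). SMAD9, its relative, measured 13.49 ± 0.19 in 15EN and 14.15 ± 0.21 in VC (SD, n = 3 each) and missed the threshold at -0.66 ± 0.22 (SE, limma adjusted p = 0.0555). SMAD1, SMAD2, SMAD3 and SMAD4 differed by -0.02 to 0.50 and did not pass. With the block SMAD9 did not pass either (0.0679). The 11 measured intracellular negative regulators include the ubiquitin ligases SMURF1 and SMURF2. In limma without the block 0 of them passed (0%, against 21.4% of all genes). An unadjusted limma p under 0.05 was reached by 3 of the 11, against 5697 of all 17687 genes. With the block 2 passed (18.2%, against 23.8% of all genes in that fit). These were the corepressor TGIF1 (0.86, adjusted p = 0.0262, against 0.0551 without the block), higher in all 3 same-numbered arrays, and STRAP (0.68, 0.0484, against 0.0869), a partner of SMAD7 at the receptor. The differences of the 11 genes ran from -0.51 to 0.86.

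Other known SMAD targets had 3 higher and 2 lower of 23, and this 21.7% is the share of all genes, 21.4%. With the replicate number as a block they had 5 higher and 5 lower (43.5%, against 23.8% of all genes). MSX2, a homeobox gene and BMP target, measured 11.13, 10.92 and 9.74 in 15EN, against 8.62, 8.38 and 8.22 in VC. All 15EN arrays were higher by at least 1 log2 unit (2.19 ± 0.34, adjusted p = 0.00166). CDKN1A, the cell cycle inhibitor p21 and also a target of p53, measured 14.42, 15.51 and 14.98 in 15EN, against 10.67, 12.83 and 12.87 in VC (2.85 ± 0.53, adjusted p = 0.00419), with VC replicate 1 well below the other VC arrays. SNAI2, a repressor of epithelial genes, fell by 0.73 ± 0.21 on the log2 scale (adjusted p = 0.033) and COL1A1, a fibrillar collagen, by 0.88 ± 0.27 (adjusted p = 0.0393). COL1A1 was dim in 15EN (mean 7.32) and not in VC (mean 8.20), so the size of its fall is not well measured. SNAI2 did not pass without any single array other than 15EN replicate 3 (0.075 to 0.115), nor COL1A1 when replicate 1 or 2 of 15EN, or replicate 2 or 3 of VC, was left out (0.0552 to 0.164), and the difference of COL1A1 without both arrays of replicate 2 was -0.50. BHLHE40, outside the naming rule, averaged 8.64 in 15EN and, dim there, 7.396 in VC, so the size of its difference (1.25 ± 0.39, adjusted p = 0.0455) is not well measured either, a call lost without 15EN replicate 2 (0.82) or any VC array (adjusted p = 0.0612 to 0.178). The TGF-beta targets CCN2 (0.09 ± 0.32) and TGFBI (0.73 ± 0.36), and the BMP target ATOH8 (-0.91 ± 0.31, adjusted p = 0.0599), did not pass. With the block ATOH8 passed (0.0445), together with FN1 (-1.36, 0.00285), a matrix protein, LTBP2 (-0.87, 0.0295, dim in both groups), JAG1 (1.11, 0.0265), a Notch ligand, and ACTA2 (0.68, 0.0426), smooth muscle actin.

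The bHLH proteins that ID proteins bind or hold in check had 0 higher and 2 lower of 14 (14.3%, against 21.4% of all genes), and 8 were dim in both groups. TCF3, which encodes the E proteins E12 and E47 to which ID proteins bind directly, measured 9.95, 10.07 and 10.41 in 15EN, against 11.36, 11.27 and 11.69 in VC. It was lower in every 15EN array (-1.30 ± 0.22, adjusted p = 0.00292). The other E protein genes TCF4 (0.06 ± 0.21, adjusted p = 0.896) and TCF12 (0.41 ± 0.22, adjusted p = 0.227) did not pass. HAND1 differed by -1.20 ± 0.31 (adjusted p = 0.0193), a call lost without 15EN replicate 2 or VC replicate 1 or 2 (0.0598 to 0.0727). HAND2, a bHLH factor of sympathetic neurons, differed by 0.09 ± 0.22 (adjusted p = 0.826).

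Median signal was 7.67 to 7.75 per array, and 15EN replicate 3 stood somewhat apart, correlating with the other 15EN arrays at 0.979 and 0.980 while the other arrays of a group correlated at 0.990 to 0.992. Without it the differences were -2.98 for SMAD6, -1.53 for SMAD7 and 1.67 for ID1, and all 3 passed. In all, 2179 genes were higher and 1608 lower in 15EN (57.5% higher), and after scaling to the hybridization controls, which were dimmer in 15EN (10.3 to 10.6, against 11.2 to 11.4 in VC), 12150 were higher and 437 lower (96.5% higher). Of the adrenergic neuroblastoma markers 10 were measured, and 2 of them, TH and CHGA, were dim in both groups. PHOX2A, HAND2, GATA2, GATA3, ISL1 and STMN2 were well above that level in both groups. Of these 10 markers 0 were higher and 5 lower (50%, against 21.4% of all genes). The 5 were STMN2 (-1.72), DBH (-1.59, dim in 15EN), CHGA (-1.25), ISL1 (-1.19) and PHOX2A (-0.88). The mean level of the 10 markers was 9.90 to 10.02 in 15EN and 10.7 to 10.9 in VC. Substrate-adherent markers had 2 higher and 4 lower of 10 (60%), at means of 9.95 to 10.6 in 15EN and 10.4 to 10.8 in VC. FOSL1 (3.81) and YAP1 (1.43, dim in VC) were higher, and TNC (-3.10, dim in 15EN), NOTCH2 (-1.51), VIM (-0.95) and SNAI2 (-0.73) lower. Fibroblast markers had 0 higher and 2 lower of 7 (28.6%), at 8.56 to 9.34 in 15EN and 9.27 to 9.66 in VC. Those of Schwann cells and glia were dim in both groups for all 6 measured, with 0 passing and 0 at an unadjusted p under 0.05 in limma. In bulk RNA, fewer cells of a kind and less transcript per cell cannot be told apart, and the part of these markers in the results above was not tested.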

How the data were processed

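The authors deposited log2 signals for 24351 probe sets on each array. The submitters' processing notes name the Transcriptome Analysis Console. Its version, the normalization and the genome build were not given in the sources used. The platform annotation gave exactly 1 symbol to 17709 of 21448 gene probe sets, several symbols to 0, and none to 3739. All 17709 matched RefSeq genes by Entrez identifier. Where a gene had several probe sets the brightest over the 6 arrays was used, so that 22 were dropped and 17687 genes tested, dim ones included. Precision is limited by the number of arrays.

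Differences between 15EN and VC were fitted by limma (version 3.58.1, under R 4.3.3) through lmFit and eBayes with a single group term. Its two-sided p-values were adjusted over all genes by Benjamini-Hochberg, at a threshold of 0.05. Errors beside differences are standard errors of that fit, and errors beside means are SDs over 3 arrays. The procedure was tested on simulated arrays with known changes. These had independent values, few changed genes and no pairing, so that test does not give the error rate for paired samples. The members, the pathway and marker lists and the tests were chosen with earlier results of these data known, so counts over a list are descriptions. All 9 members are named, and in each pathway list up to 4 genes past the threshold by smallest p. A gene held by several lists, such as SNAI2 or COL1A1, counts in each. Not analysed here are 9 listed pathway genes.

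Deviations from the group means correlated at 0.229, 0.162 and 0.133 for replicates 1, 2 and 3, against -0.138 to -0.0165 between different numbers, and titles give same-numbered samples the same passage. The numbers therefore pair the samples. Alternatives were the replicate number as a block, quantile normalization, median centring, scaling to 4 hybridization controls, removal of a brightness trend by loess, omission of the dimmest tercile of genes, averaging of probe sets per gene, a trended robust prior, array weights, and omission of single arrays or of both arrays with 1 number. Promoter windows came from RefSeq (GRCh38.p14).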

Additional observations from a re-analysis of the deposited data

How the results depend on the processing

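Named genes gave 539 values under the 18 alternatives. Of these, 438 kept their direction and their side of the threshold, 86 lost the call, 5 gained it and 10 changed sign. With the replicate number as a block, 4203 genes, 3 of the 9 members and 31 other pathway genes passed, against 3787, 3 and 21, and among the called pathway genes GDF6 alone lost its call. Scaling to the hybridization controls gave 12587 genes, 7 members and 78 pathway genes, because it adds 0.87 to every difference. Under it ID2 (0.24), BAMBI (0.44), NEO1 (0.050), ACVR1B (0.14) and SNAI2 (0.14) turned positive, against a median gene of 0.88. Array weights gave 34 pathway genes. Without 1 array, or both of a number, 1021 to 5467 genes, 2 to 4 members and 6 to 34 pathway genes passed, in smaller fits. ID3 turned to -0.10 without 15EN replicate 1 and to -0.07 without both arrays of replicate 1, ID4 to -0.02 and -0.053, and BMP7 to -0.027 in the second of these fits, none of them passing. Over all such omissions their highest differences were 0.52 for ID3, 1.07 for ID4 and 0.52 for BMP7. Apart from the smaller fits and the added constant, the causes were not tested. The array number and the dimness of most ligands limit what could be detected.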
